A study of Mus musculus with 6 samples.

Results

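The nitric oxide genes described here were 10 genes chosen by symbol: *Nos1*, *Nos2*, *Nos3*, *Gch1*, *Ddah1*, *Ddah2*, *Arg1*, *Arg2*, *Gucy1a1* and *Gucy1b1*. All 10 were found among the 55416 genes of the count table. RNA-Seq was performed on mGFP+ coronary endothelial cells (ECs) sorted by FACS from the ventricles of E15.5 mouse hearts, with 3 libraries from *ControlΔEC* and 3 from *Wt1KOΔEC* embryos. *Wt1KOΔEC* embryos were Pdgfb-CreERT2/+; Wt1-LoxP/LoxP; R26-mTmG/+ and *ControlΔEC* embryos were Pdgfb-CreERT2/+; Wt1-+/+; R26-mTmG/+, taken from shared litters. Both genotypes therefore carried the tamoxifen-inducible Cre under *Pdgfb* control and the mTmG reporter, and both were exposed to tamoxifen, given to the mother at 75 mg/kg by oral gavage from E11.5 to E13.5. Only cells in which Cre had recombined the reporter were sorted, and the reporter does not show whether *Wt1* was recombined in the same cell. The labels call the libraries biological replicates and do not say how many embryos each one holds.

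Nitric oxide is a diffusible gas that ECs make from L-arginine, and it relaxes the smooth muscle around vessels. Nitric oxide synthases (NOS) need the cofactor tetrahydrobiopterin, are inhibited by methylated arginines that DDAH enzymes degrade, and share their substrate with the arginases. The main receptor of nitric oxide is soluble guanylate cyclase, a heterodimer of an alpha and a beta subunit that makes cyclic GMP (cGMP). In the vessel wall the gas is made in the endothelium by NOS3, and the cyclase that senses it is best known from smooth muscle cells and pericytes.

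The targeted gene, *Wt1*, stood at 145, 110 and 149 CPM (counts per 1000000 of a library size scaled by the TMM method of edgeR) in *ControlΔEC* and at 14.0, 18.4 and 21.3 CPM in *Wt1KOΔEC*, as its label requires. Total counts ranged from 26037324 to 44779020 per library, and the ribosomal RNA gene *Rn18s* took 13.2 to 15.3% of them in *ControlΔEC* and 21.1 to 26.5% in *Wt1KOΔEC*. The summed level of 8 endothelial markers, led by *Pecam1*, was 4541 to 5769 CPM in *ControlΔEC* and 4688 to 5405 CPM in *Wt1KOΔEC*, and none of the 8 was at 0. The summed level of 12 genes known as mural cell markers, led by *Abcc9*, was 479 to 651 CPM in *ControlΔEC* and 330 to 389 CPM in *Wt1KOΔEC*. That of 9 macrophage markers, led by *Csf1r*, was 291 to 824 CPM and 194 to 281 CPM. In bulk libraries, fewer cells of a type and less RNA per cell cannot be told apart.

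The first question was whether coronary ECs of the 2 genotypes differed in the transcripts that make nitric oxide and respond to it. *Nos2*, *Nos3* and *Gucy1a1* were lower in every *Wt1KOΔEC* library than in every *ControlΔEC* library, and *Gucy1b1* was higher in every one. None of the 10 genes passed the test across all genes (edgeR quasi-likelihood F test, adjusted p under 0.05 and absolute log2 fold change above 0.58), which called 12 of 16296 genes, or 0.0736%, with 0.0491% higher and 0.0245% lower. At an unadjusted p under 0.05 there were 4 members, 3 of them lower and 1 higher, against 13.1% of all genes tested, 7.12% lower and 5.96% higher. By levels that did not overlap between genotypes, the same 4 genes stood apart, against 19.3% of all genes, 8.97% lower and 10.3% higher. DESeq2, the tool named in the methods of the study, called 4.83% of the 15886 genes it gave an adjusted p (2.2% higher and 2.63% lower), and 1 of the members, *Nos2*, which was lower. The labels give no sign that same-numbered libraries were paired, and p-values measure the spread between these libraries. The column names of the count table begin with AT for all *ControlΔEC* and with AU for all *Wt1KOΔEC* libraries. The labels do not say what these letters mean, and any difference in handling along them cannot be told apart from genotype.

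Of the 10 members, 9 passed the filter of at least 10 counts in at least 2 libraries, and *Nos1* did not. *Arg1* passed through *Wt1KOΔEC* libraries alone. The other 8 reached that minimum in each genotype. Of these, 6 were lower and 2 higher in *Wt1KOΔEC*, beside 52.0% of all genes tested that were lower. The median log2 fold change of the 8 was -0.35, beside -0.03 over all genes tested.

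*Nos3*, on chromosome 5 (24569787-24589475, plus strand; all gene positions are those of GRCm39), encodes the endothelial NOS. It was the highest of the members, ranking 154 of 55416 genes by mean CPM in *ControlΔEC*. Its level was 555, 705 and 517 CPM in *ControlΔEC* and 386, 504 and 378 CPM in *Wt1KOΔEC*. The lowest *ControlΔEC* library lay just above the highest *Wt1KOΔEC* library, so that the genotypes did not overlap by a narrow margin. The mean was 592 ± 99.6 CPM (SD, n = 3) against 423 ± 70.5 CPM, a log2 fold change of -0.49 (SE 0.18) with an adjusted p of 0.310 in edgeR and 0.112 in DESeq2. The exons of *Nos3* share 1338 bases with the lncRNA *Gm15587* and 297 bases with *Atg9b*, both on the other strand, and the library protocol does not mark strand. Over all libraries these genes were given 2170 and 1511 counts, beside at least 9564 for *Nos3* in any single library.

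*Nos2*, on chromosome 11 (78811613-78851080, plus strand), encodes the inducible NOS, best known from activated macrophages. The study named it among arterial marker genes that were lower in these libraries, so that its direction here is not independent evidence. *Nos2* was at 32.0, 41.8 and 41.1 CPM in *ControlΔEC* and at 26.8, 21.4 and 19.5 CPM in *Wt1KOΔEC*. All *Wt1KOΔEC* libraries lay below all *ControlΔEC* libraries. The mean was 38.3 ± 5.49 CPM against 22.6 ± 3.79 CPM (SD, n = 3 each), a log2 fold change of -0.76 (SE 0.22). The adjusted p was 0.224 in edgeR and 0.0267 in DESeq2, and the call thus depended on the tool. Of 9 macrophage markers, 5 were lower at an unadjusted p under 0.05 (7.12% of all genes), none was called in edgeR, and DESeq2 called 2 lower, *Csf1r* and *Adgre1* (2.63% of all genes). *Csf1r*, the receptor that macrophages need to survive, was at 153, 327 and 103 CPM in *ControlΔEC* and at 72.5, 92.1 and 57.1 CPM in *Wt1KOΔEC*. In *ControlΔEC* replicates 1, 2 and 3 the macrophage sum was 403, 824 and 291 CPM, beside *Nos2* at 32.0, 41.8 and 41.1 CPM. The part of macrophages in the *Nos2* values was not tested.

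*Nos1*, the neuronal NOS gene (chromosome 5, 117918971-118096905, plus strand), had 36 counts in *ControlΔEC* replicate 2, or 0.730 CPM, and 0 counts in the other 5 libraries. A count of 0 allows up to 3 counts, or 0.0671 to 0.119 CPM in those libraries. Of the neuronal and neural crest markers, *Th* and *Snap25* were at 0 in every library.

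Per kilobase of exon, the scale on which genes of different length can be compared, *Nos3* made up 93.9, 93.7 and 91.8% of the summed NOS level in *ControlΔEC* and 92.7, 95.4 and 94.5% in *Wt1KOΔEC*. *Nos2* made up nearly all of the rest. These shares overlapped between genotypes, with *Nos3* and *Nos2* both lower in *Wt1KOΔEC*.

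**Figure D1:**
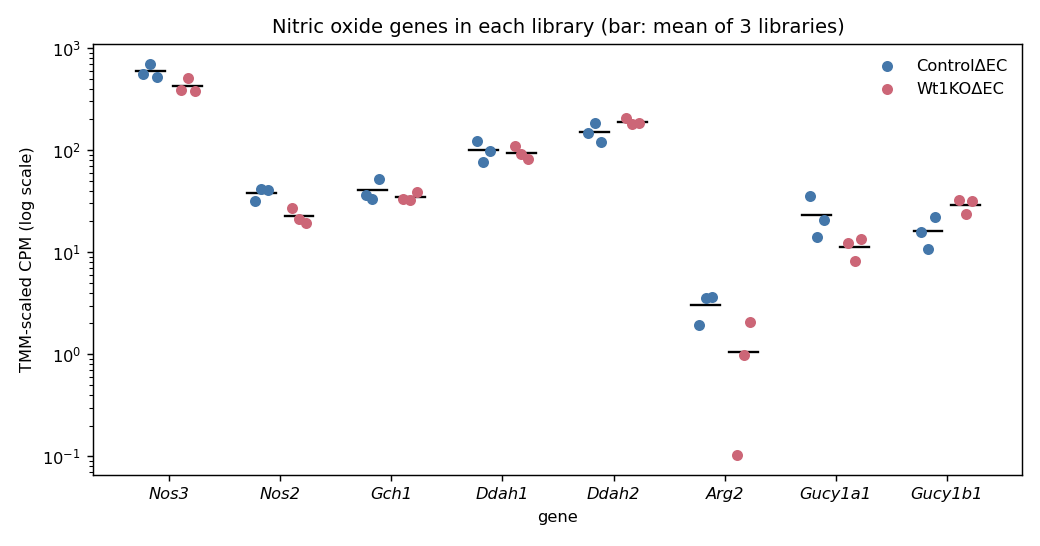
Level of 8 of the nitric oxide genes in each library, in TMM-scaled CPM on a log axis, with 1 point for each of the 3 *ControlΔEC* (blue) and 3 *Wt1KOΔEC* (red) libraries and a bar for their mean. *Nos2*, *Nos3* and *Gucy1a1* lie lower and *Gucy1b1* higher in all *Wt1KOΔEC* libraries, whereas *Gch1*, *Ddah1*, *Ddah2* and *Arg2* overlap; *Nos1* and *Arg1*, near 0, are not drawn.

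*Gch1* (chromosome 14, 47391346-47426915, minus strand) encodes GTP cyclohydrolase 1, the rate-limiting enzyme of tetrahydrobiopterin synthesis. Its level was 36.5, 33.1 and 51.6 CPM in *ControlΔEC* and 33.4, 32.6 and 38.5 CPM in *Wt1KOΔEC*. The genotypes overlapped, and *ControlΔEC* replicate 3 was the highest. The log2 fold change was -0.21 (SE 0.22) with an adjusted p of 0.777 in edgeR, and it was 0.0051 without that library.

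*Ddah1* and *Ddah2* encode the dimethylarginine dimethylaminohydrolases, which break down the endogenous NOS inhibitor asymmetric dimethylarginine. *Ddah1* (chromosome 3, 145464361-145600032, plus strand) was at 123, 76.8 and 99.1 CPM in *ControlΔEC* and at 111, 92.3 and 81.2 CPM in *Wt1KOΔEC*. Its *Wt1KOΔEC* libraries all lay within the *ControlΔEC* range, with a log2 fold change of -0.07 (SE 0.21) and an adjusted p of 0.939 in edgeR. *Ddah2* (chromosome 17, 35277987-35281073, plus strand) was at 148, 186 and 121 CPM in *ControlΔEC* and at 205, 180 and 186 CPM in *Wt1KOΔEC*. Only *ControlΔEC* replicate 2 reached the level of the *Wt1KOΔEC* libraries, and the log2 fold change was 0.33 (SE 0.18) with an adjusted p of 0.511 in edgeR. It ran from 0.19 without *ControlΔEC* replicate 3 to 0.50 without *ControlΔEC* replicate 2. Per kilobase, *Ddah2* exceeded *Ddah1* in every library, by 3.13, 6.28 and 3.17 times in *ControlΔEC* and by 4.81, 5.06 and 5.93 times in *Wt1KOΔEC*.

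The arginases split arginine into ornithine and urea, and in mean CPM they were, with *Nos1*, the lowest of the members in both genotypes. *Arg2*, the mitochondrial form (chromosome 12, 79177524-79203075, plus strand), had 87, 177 and 104 counts in *ControlΔEC* and 4, 35 and 52 counts in *Wt1KOΔEC*. In CPM these were 1.94, 3.59 and 3.61 against 0.102, 0.983 and 2.06, and the highest *Wt1KOΔEC* library overlapped the lowest *ControlΔEC* library. The log2 fold change was -1.54 (SE 1.04) with an adjusted p of 0.607 in edgeR, and it ran from -1.003 without *Wt1KOΔEC* replicate 1 to -2.48 without *Wt1KOΔEC* replicate 3. *Arg2* shares 492 of its 1455 exonic bases with *Vti1b* on the other strand, which had 8772 counts over all libraries, and reads from the shared bases cannot be told apart without strand.

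*Arg1*, the cytosolic form (chromosome 10, 24791118-24803817, minus strand), had 0, 0 and 1 counts in *ControlΔEC* and 27, 0 and 21 counts in *Wt1KOΔEC*. The gene was thus near the detection limit in *ControlΔEC* and in 1 of the *Wt1KOΔEC* libraries. Because the gene passed the filter through *Wt1KOΔEC* libraries alone, no fold change or test is given for it.

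The receptor showed opposite differences in its alpha 1 and beta 1 subunits. *Gucy1a1* (chromosome 3, 81999733-82053216, minus strand) was at 35.4, 14.2 and 20.5 CPM in *ControlΔEC* and at 12.2, 8.17 and 13.5 CPM in *Wt1KOΔEC*. All *Wt1KOΔEC* libraries were lower, although *ControlΔEC* replicate 2 came close to the highest of them. The mean was 23.4 ± 10.9 CPM against 11.3 ± 2.76 CPM (SD, n = 3 each), a log2 fold change of -1.05 (SE 0.37) with an adjusted p of 0.284 in edgeR and 0.101 in DESeq2. Without *ControlΔEC* replicate 1, the highest library, the log2 fold change was -0.62.

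*Gucy1b1* (chromosome 3, 81939312-81982022, minus strand) was at 15.7, 10.8 and 22.2 CPM in *ControlΔEC* and at 32.1, 23.7 and 31.9 CPM in *Wt1KOΔEC*. Here all *Wt1KOΔEC* libraries were higher, with the smallest gap between *ControlΔEC* replicate 3 and *Wt1KOΔEC* replicate 2. The mean was 16.2 ± 5.72 CPM against 29.2 ± 4.80 CPM (SD, n = 3 each), a log2 fold change of 0.85 (SE 0.30) with an adjusted p of 0.284 in edgeR and 0.102 in DESeq2.

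The sum of both subunits was 51.1, 25.0 and 42.6 CPM in *ControlΔEC* and 44.3, 31.8 and 45.4 CPM in *Wt1KOΔEC*, which overlapped. The ratio of *Gucy1a1* to *Gucy1b1*, each per kilobase of exon, was 0.911, 0.536 and 0.374 in *ControlΔEC* and 0.154, 0.140 and 0.171 in *Wt1KOΔEC*. Per kilobase, *Gucy1b1* was thus the higher of the pair in all 6 libraries. In CPM not divided by length, *Gucy1a1* was the higher in *ControlΔEC* replicates 1 and 2, at 35.4 and 14.2 against 15.7 and 10.8 CPM. The ratio was lower and less spread in *Wt1KOΔEC*, at 0.155 ± 0.0156 against 0.607 ± 0.276 (SD, n = 3 each). The ratio was computed after both differences were seen and was given no test.

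**Figure D2:**
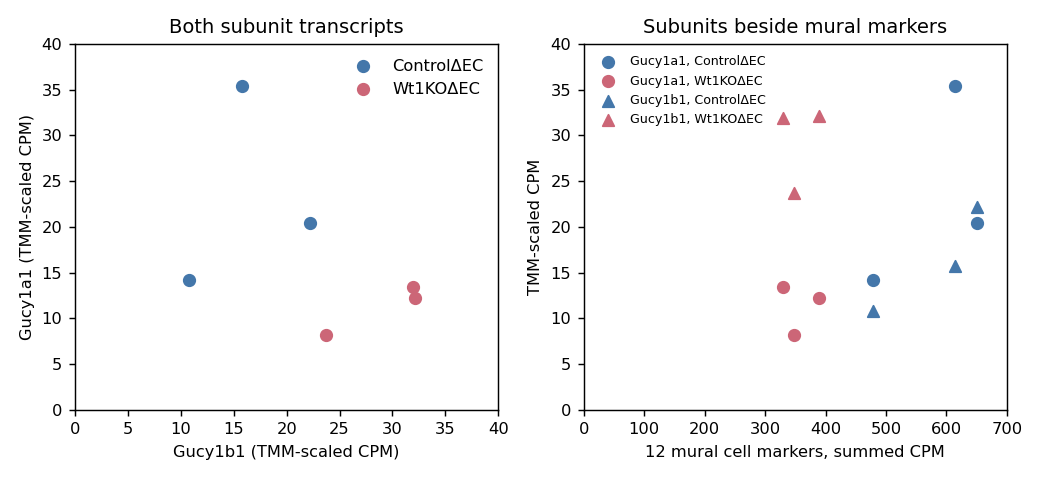
Soluble guanylate cyclase subunits in each of the 6 libraries (blue, *ControlΔEC*; red, *Wt1KOΔEC*), as *Gucy1a1* against *Gucy1b1* in CPM (left) and as each subunit (circles, *Gucy1a1*; triangles, *Gucy1b1*) against the summed CPM of 12 mural cell markers (right). The *Wt1KOΔEC* libraries lie lower in *Gucy1a1*, higher in *Gucy1b1*, and at 330 to 389 CPM of mural markers against 479 to 651 CPM in *ControlΔEC*.

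Some mural cell markers were also lower in *Wt1KOΔEC*. Of 12 markers, 11 were tested. *Vtn* and *Higd1b* passed the filter through *ControlΔEC* libraries alone and are left out of the counts that follow, though not of the mural sum. Of the others, *Pdgfrb*, *Rgs5*, *Abcc9* and *Cspg4* were lower at an unadjusted p under 0.05 in edgeR (7.12% of all genes). None was called in edgeR, and DESeq2 called *Pdgfrb*, *Rgs5* and *Cspg4* lower (2.63% of all genes). *Rgs5*, a pericyte marker that the study counts among the arterial genes lower in these libraries, was at 165, 26.8 and 164 CPM in *ControlΔEC* and at 25.4, 17.9 and 19.4 CPM in *Wt1KOΔEC*. Within *ControlΔEC*, *Rgs5* and *Gucy1a1* were both lowest in replicate 2. *Gucy1a1* was highest in replicate 1, whereas *Rgs5* was nearly equal in replicates 1 and 3. Within *Wt1KOΔEC*, both genes were lowest in replicate 2, with *Rgs5* highest in replicate 1 and *Gucy1a1* in replicate 3. In *ControlΔEC* the mural sum was also lowest in replicate 2, but replicate 1 was not its highest. The mural sum was highest in *ControlΔEC* replicate 3, at 651 CPM, where *Gucy1a1* was at 20.5 CPM, and lowest in *Wt1KOΔEC* replicate 3, at 330 CPM, where *Gucy1a1* was the highest of its genotype. The smooth muscle gene *Acta2* was at 47.2, 33.3 and 55.5 CPM in *ControlΔEC* and at 36.0, 55.2 and 41.3 CPM in *Wt1KOΔEC*, which overlapped. Within *ControlΔEC*, *Gucy1b1* was lowest in replicate 2 and highest in replicate 3, the order of the mural sum. Between genotypes, *Gucy1b1* was higher in *Wt1KOΔEC*, where the mural sum was lower. The part of mural cells in the values of both subunits was not tested.

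*Gucy1b1* and *Gucy1a1* are neighbours on the same strand, 17.7 kb apart with 0 annotated genes between them. Their promoter windows are shown because these adjacent genes differed in opposite directions. Each window is a RefSeq sequence of GRCm38.p6, 250 bases before to 50 bases after a transcription start, written 5′ to 3′ on the minus strand. Capitals mark matches to GCGTGGGNG, a motif of the zinc finger factors EGR1 and WT1, searched on both strands with no other motif. The first *Gucy1a1* window was chr3:82145024-82145323, the second was chr3:82145601-82145900 and that of *Gucy1b1* was chr3:82074662-82074961 in GRCm38.p6. Each matched GRCm39 exactly once on chromosome 3, at chr3:82052331-82052630, chr3:82052908-82053207 and chr3:81981969-81982268 in the same order.
Gucy1a1 first window: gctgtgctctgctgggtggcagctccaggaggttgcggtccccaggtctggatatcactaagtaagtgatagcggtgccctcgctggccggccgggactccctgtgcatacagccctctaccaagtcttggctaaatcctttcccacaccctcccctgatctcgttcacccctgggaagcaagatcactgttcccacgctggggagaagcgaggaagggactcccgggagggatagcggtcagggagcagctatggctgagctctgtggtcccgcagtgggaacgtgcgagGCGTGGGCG
Gucy1a1 second window: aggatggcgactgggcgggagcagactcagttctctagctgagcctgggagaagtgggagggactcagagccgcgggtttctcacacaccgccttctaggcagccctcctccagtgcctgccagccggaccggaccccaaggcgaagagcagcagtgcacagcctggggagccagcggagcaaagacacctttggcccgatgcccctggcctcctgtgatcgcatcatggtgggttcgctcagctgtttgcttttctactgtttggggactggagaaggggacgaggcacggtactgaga
Gucy1b1 window: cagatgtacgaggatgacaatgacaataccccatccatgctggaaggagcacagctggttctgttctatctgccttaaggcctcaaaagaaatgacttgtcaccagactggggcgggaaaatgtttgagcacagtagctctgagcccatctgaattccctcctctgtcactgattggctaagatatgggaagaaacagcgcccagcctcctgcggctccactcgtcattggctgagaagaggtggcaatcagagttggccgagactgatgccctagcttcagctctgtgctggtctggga
Of 7 windows available for 6 of the members, 1 held the motif. The match lay at positions 292-300 of the first *Gucy1a1* window, on the strand of the gene and after the transcription start. The other *Gucy1a1* window and those of *Gucy1b1*, *Ddah1*, *Ddah2*, *Gch1* and *Nos1* had none. *Nos2*, *Nos3*, *Arg1* and *Arg2* had no window. The motif occurred in 623 of 32851 promoter windows of 300 bases, or 1.9%. The motif was chosen after the sequences had been seen, and a match is not evidence of binding.

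The order of levels per kilobase of exon was led by *Nos3* in both genotypes. In *ControlΔEC* it ran from *Nos3* at 118 CPM per kb over *Ddah2* at 65.5 and *Ddah1* at 16.6 to *Nos2* at 8.62, and each of the first 3 stood above the next in all libraries. Then *Gch1* at 6.03, *Gucy1b1* at 3.83, *Gucy1a1* at 2.24 and *Arg2* at 2.09 CPM per kb followed, where neighbours, from *Nos2* on, overlapped between libraries. In *Wt1KOΔEC*, *Nos3* at 84.5 and *Ddah2* at 82.2 CPM per kb overlapped. *Gucy1b1*, at 6.90 CPM per kb, came next after *Ddah1* at 15.8 CPM per kb, with *Gch1* at 5.21 and *Nos2* at 5.08 overlapping behind it, and *Gucy1a1* at 1.08 and *Arg2* at 0.720 CPM per kb followed. *Nos1* and *Arg1* took the last places in both genotypes.

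**Figure D3:**
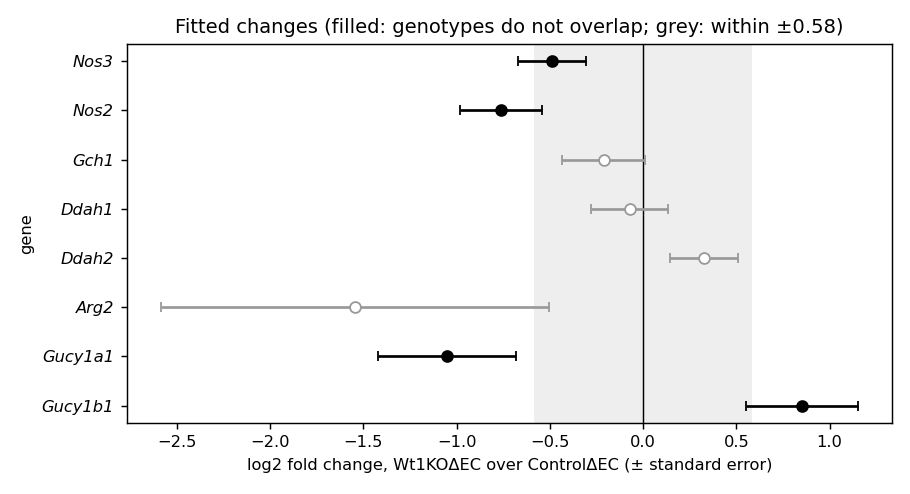
Log2 fold change (*Wt1KOΔEC* over *ControlΔEC*, edgeR) of the 8 nitric oxide genes with counts in both genotypes, with bars for the standard error, filled symbols where the libraries of the genotypes do not overlap and a grey band for changes within ±0.58. *Gucy1b1* lies at 0.85 and *Gucy1a1* at -1.05, *Arg2* has the widest bar, and *Nos1* and *Arg1* are not drawn.

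The surroundings of these genes were followed over 8 lists with 59 genes, of which 57 were tested. Of these, 55 reached 10 counts in 2 libraries of each genotype, and *Prkg2* and *Pde1c* did not. None of the 55 was called in edgeR, 4 were higher and 4 lower at an unadjusted p under 0.05, beside 5.96% and 7.12% of all genes, and their median log2 fold change was 0.08. DESeq2 called 4 of them, beside 4.83% of all genes, *Prmt1* and *Srm* higher and *Odc1* and *Cav1* lower.

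Upstream of the synthases, none of the 6 tetrahydrobiopterin genes and none of the 6 arginine supply genes had an unadjusted p under 0.05. Their median log2 fold changes were 0.10 and 0.12. *Qdpr*, which regenerates tetrahydrobiopterin, was at 98.4, 74.2 and 84.4 CPM in *ControlΔEC* and at 106, 80.4 and 85.2 CPM in *Wt1KOΔEC*. *Slc7a1*, the main arginine carrier of many cells, was at 66.6, 57.5 and 61.9 CPM against 59.2, 70.9 and 72.9 CPM. Both overlapped between genotypes. *Ass1*, which makes argininosuccinate on the way from citrulline back to arginine, had a log2 fold change of 0.60 (SE 0.45, adjusted p = 0.653 in edgeR).

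Of 11 NOS protein partners, 1 was lower before adjustment and the list median was 0.19. This gene was *Cav1*, the caveolar coat protein that holds NOS3 inactive, at 3607, 1886 and 3505 CPM in *ControlΔEC* and at 1733, 1758 and 1859 CPM in *Wt1KOΔEC*. *ControlΔEC* replicate 2 lay only just above the *Wt1KOΔEC* libraries, and the study names *Cav1* as lower on these same libraries. Its log2 fold change was -0.75 (SE 0.23) with an adjusted p of 0.243 in edgeR and 0.0383 in DESeq2. The chaperone genes *Hsp90aa1* and *Hsp90ab1*, whose products bind NOS3, overlapped between genotypes, at 0.34 (SE 0.18) and 0.20 (SE 0.13) in log2 fold change (edgeR, adjusted p of 0.496 and 0.600). *Nosip*, a NOS3-interacting protein, was at 33.0, 33.3 and 24.4 CPM against 41.1, 40.3 and 41.5 CPM, without overlap (log2 fold change 0.44, SE 0.20, adjusted p = 0.396 in edgeR).

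Methylarginines arise when arginine residues are methylated and the proteins are degraded. Of the 4 tested genes of their making and removal, 1 was higher before adjustment and the median was 0.30. *Prmt1*, the main asymmetric arginine methyltransferase, was at 52.0, 31.2 and 54.1 CPM in *ControlΔEC* and at 90.8, 71.4 and 76.1 CPM in *Wt1KOΔEC*. Its libraries did not overlap, with a log2 fold change of 0.80 (SE 0.23) and an adjusted p of 0.225 in edgeR and 0.0385 in DESeq2. *Prmt3*, *Prmt6* and *Carm1* had log2 fold changes of -0.23, -0.02 and 0.62 and adjusted p-values of at least 0.600 in edgeR.

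Ornithine from the arginases feeds polyamine synthesis. Of 6 genes on this list, 1 was lower and 1 higher before adjustment, and the median was 0.00065. *Odc1*, ornithine decarboxylase, was at 435, 274 and 137 CPM in *ControlΔEC* and at 110, 107 and 79.6 CPM in *Wt1KOΔEC*. *ControlΔEC* libraries were widely spread and all above *Wt1KOΔEC* (log2 fold change -1.51, SE 0.36, adjusted p = 0.174 in edgeR and 0.0016 in DESeq2). *Srm*, spermidine synthase, was at 75.9, 94.6 and 70.4 CPM against 148, 161 and 129 CPM. Its libraries were likewise apart but in the opposite direction (log2 fold change 0.86, SE 0.17, adjusted p = 0.114 in edgeR and 0.00041 in DESeq2). *Oaz1*, the antizyme that directs ornithine decarboxylase to degradation, and *Azin1*, which counters it, had log2 fold changes of 0.20 and -0.17.

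Natriuretic peptide receptors include membrane cyclases that also make cGMP. Among these and the other cyclase subunits, 4 of 5 genes were tested and 1 was higher before adjustment. *Npr3*, the clearance receptor and a marker of endocardium, was at 8.07, 11.4 and 7.39 CPM in *ControlΔEC* and at 9.26, 25.2 and 19.9 CPM in *Wt1KOΔEC*, with overlap (log2 fold change 1.01, SE 0.39, adjusted p = 0.327 in edgeR). The summed level of 5 endocardial markers, among them *Npr3* itself, was 319 to 404 CPM in *ControlΔEC* and 672 to 796 CPM in *Wt1KOΔEC*, and most of the gap was *Plvap*, which edgeR called higher, at 68.1 CPM on average in *ControlΔEC* and 338 CPM in *Wt1KOΔEC*. Of these 5 markers, 3 were higher at an unadjusted p under 0.05 in edgeR (5.96% of all genes). DESeq2 called 2 higher (2.2% of all genes), *Plvap* and *Cdh11*. *Cdh11* was at 68.7, 88.3 and 74.1 CPM in *ControlΔEC* and at 122, 129 and 159 CPM in *Wt1KOΔEC*, without overlap. *Nfatc1*, an endocardial transcription factor, overlapped between genotypes, with a log2 fold change of 0.25 (SE 0.23). The study saw no reporter in the ventricular endocardium with this driver. The part of endocardial cells in the *Npr3* values was not tested. *Gucy1a2*, the alpha 2 subunit, had 0, 350 and 49 counts against 12, 19 and 39 counts, and its level rested on *ControlΔEC* replicate 2. *Npr1* overlapped, with a log2 fold change of 0.12 (SE 0.26).

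Of 14 cGMP effectors and phosphodiesterases, 12 reached the minimum in each genotype. Of these 12, 1 was higher and 1 lower before adjustment, and the median was -0.26. *Vasp*, a classical substrate of cGMP-dependent kinase, was at 31.7, 25.2 and 33.1 CPM in *ControlΔEC* and at 43.5, 42.5 and 44.9 CPM in *Wt1KOΔEC*. The libraries did not overlap, and the log2 fold change was 0.54 (SE 0.19, adjusted p = 0.284 in edgeR). *Prkg2*, a cGMP-dependent kinase, had 0 counts in all *ControlΔEC* libraries and 13, 41 and 0 in *Wt1KOΔEC*. It passed the filter through *Wt1KOΔEC* libraries alone and is left out of these counts. *Pde5a*, which degrades cGMP and was named after its values were seen, was the gene lower before adjustment, with 210, 141 and 58 counts in *ControlΔEC* and 0, 24 and 12 counts in *Wt1KOΔEC*. Its log2 fold change was -3.05 (SE 1.35) with an adjusted p of 0.381 in edgeR. *Pde2a*, a cGMP-stimulated phosphodiesterase and the highest gene of the list, was at 420, 302 and 411 CPM against 382, 307 and 286 CPM, which overlapped.

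Of 6 genes of nitric oxide and nitrosothiol removal, 1 was lower before adjustment and the median was 0.04. *Txnrd1*, thioredoxin reductase 1, was at 426, 380 and 323 CPM in *ControlΔEC* and at 274, 312 and 209 CPM in *Wt1KOΔEC*, with all *Wt1KOΔEC* libraries lower (log2 fold change -0.51, SE 0.19, adjusted p = 0.309 in edgeR). *Cygb*, cytoglobin, was at 8.94, 4.10 and 7.21 CPM against 2.97, 4.80 and 1.62 CPM and overlapped. *Akr1a1* and *Cyb5r3*, at 0.05 and 0.03 on the log2 scale, differed less than the spread between libraries.

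**Figure D4:**
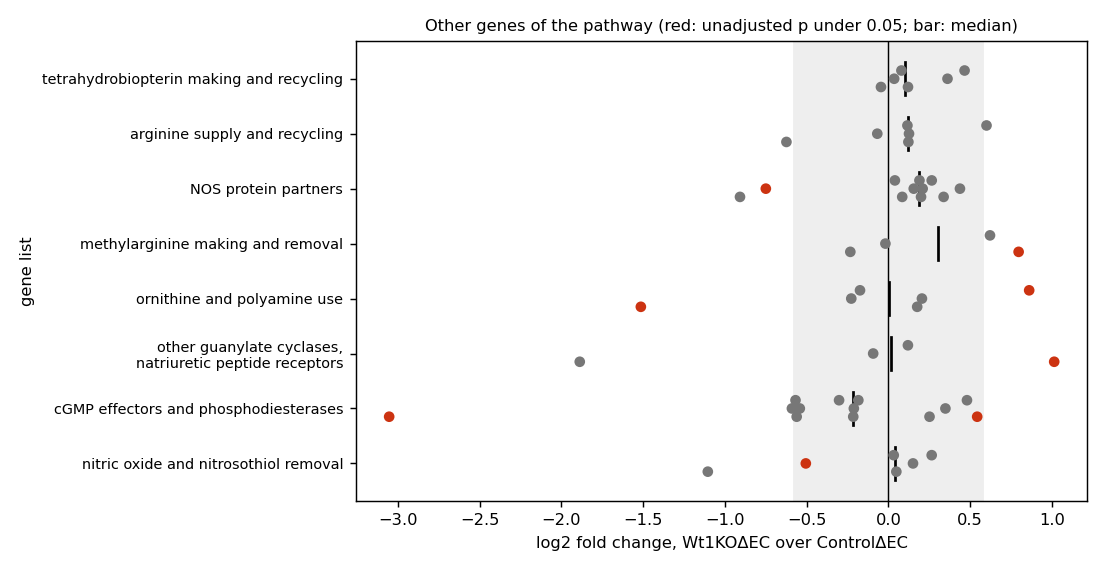
Log2 fold change (*Wt1KOΔEC* over *ControlΔEC*, edgeR) of the tested genes on the 8 pathway lists, 1 point per gene, red where the unadjusted p is under 0.05, with a bar at the median of the genes drawn for each list and a grey band for changes within ±0.58. The red points lie on both sides of 0 and no gene passed the adjusted test; *Prkg2*, with no count in *ControlΔEC*, is not drawn.

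As a description, the genes whose log2 CPM followed *Nos3* most closely over the 6 libraries, among 16295 compared, were *Gm26811* (Pearson r = 0.999), *Celsr3* (0.994) and *D730003I15Rik* (0.990). All of them were low, and each was highest in *ControlΔEC* replicate 2, as was *Nos3*. For *Nos2* they were *Iqce* (0.992), *Atad2b* (0.992) and *Gm42427* (0.989). Over 6 libraries such values are common, with 57 genes above 0.95 for *Nos3* and 70 for *Nos2*, and genes of a library share its depth and composition.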

How the data were processed

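RNA-Seq libraries were made by a SMARTseq2 protocol, which marks neither strand nor molecules. The deposited table holds expected counts per gene, written as whole numbers, which the authors obtained with STAR 2.7.8a and RSEM 1.3.0 on GRCm39 with GENCODE vM27 according to the methods, while the submitters' processing notes list GRCm38 and DESeq2 1.18. The table has no coordinates. Gene positions and exonic lengths were taken from GENCODE vM39 on GRCm39.

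Counts of the 6 libraries were tested with edgeR 4.0.16 in R 4.3.3 (quasi-likelihood F test, TMM) over the 16296 genes that reached 10 counts in 2 or more libraries, with Benjamini-Hochberg adjustment, after a check on simulated data. SE was taken as the size of the log2 fold change divided by the root of F. DESeq2 1.42.0, limma-voom 3.58.1, other scalings and filters and leaving out each library were alternatives. CPM use TMM-scaled library sizes, and the floor is 3 counts. The members and lists were chosen with earlier results of these data known. Named genes are all members and, of each pathway list, genes called, the 3 with the highest mean CPM and the 2 with the smallest p. Of marker lists they are the highest gene and those at 0 in every library. Named after their values were seen were *Adgre1*, *Pdgfrb*, *Rgs5*, *Cspg4*, *Vtn*, *Higd1b*, *Acta2*, *Nfatc1*, *Cdh11*, *Col1a1*, *Col1a2*, *Dcn*, *Upk3b* and *Msln*. For *Nos2* and *Nos3* the 3 most correlated genes are named.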

Additional observations from a re-analysis of the deposited data

How the results depend on the processing

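The number of genes called was 12, and it was 767 with DESeq2, 296 with no filter on low counts, 113 with at least 10 counts in every library, 1652 by unadjusted p with the same fold change limit and 5 with a replicate block. Leaving out 1 library gave 2 to 37 calls (4, 26 and 37 without *ControlΔEC* replicates 1, 2 and 3, and 3, 3 and 2 without *Wt1KOΔEC* replicates 1, 2 and 3). Scaling by library size alone shifted the median of all genes by -0.15 and gave 5 higher and 6 lower calls, beside 8 and 4. Of the nitric oxide genes, 0 were called, and 1 (*Nos2*) with DESeq2 and 3 by unadjusted p and fold change (*Nos2*, *Gucy1a1* and *Gucy1b1*). None was called without any single library. Of the pathway genes, 0 were called, and 4 with DESeq2, 2 with no filter, 2 with the filter in every library, 7 by unadjusted p and fold change (*Prkg2* included), and 0 to 1 without 1 library. The order of levels in *ControlΔEC* kept 6 of 10 places in CPM not divided by length and 8 to 10 without 1 library. Of 135 fold changes of the 8 members with counts in both genotypes over all alternatives, 132 kept their direction, and the 3 others were *Gch1* at 0.0051 without *ControlΔEC* replicate 3 (-0.34 to 0.0051 over the libraries left out) and *Ddah1* at 0.11 without *ControlΔEC* replicate 1 and 0.03 without *Wt1KOΔEC* replicate 3 (-0.23 to 0.11). The causes were not tested. Same-numbered libraries deviated together with r of 0.06, 0.0045 and 0.02, and differently numbered ones with r of -0.04 to 0.03. The numbers were not taken to pair them, but these values cannot show whether libraries shared a litter. With the replicate block the adjusted p in edgeR was 0.306 for *Nos2*, 0.260 for *Nos3*, 0.285 for *Gucy1a1* and 0.266 for *Gucy1b1*. The unadjusted p in edgeR was then 0.0160, 0.0072, 0.0114 and 0.0078 in the same order. Without the block it was 0.0072, 0.0253, 0.0191 and 0.0191. Depth limits *Nos1*, *Arg1*, *Arg2* and *Prkg2*, with few or no counts in some libraries.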

Other observations

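Markers of further cell types were measured in the same libraries. The summed level of 7 fibroblast markers, led by *Postn*, was 408 to 589 CPM in *ControlΔEC* and 715 to 881 CPM in *Wt1KOΔEC*. Of them, edgeR called 1 higher, the collagen gene *Col1a1* (0.0491% of all genes). DESeq2 called 3 higher (2.2% of all genes), *Col1a1*, *Col1a2* and *Dcn*. The summed level of 6 epicardial markers, led by *Aldh1a2*, was 10.8 to 17.3 CPM and 16.4 to 53.5 CPM. *Aldh1a2* had a log2 fold change of -0.05 in edgeR, and DESeq2 called 2 of the 6 higher (2.2% of all genes), *Upk3b* and *Msln*. *Upk3b* had 166, 65 and 31 counts in *ControlΔEC* and 468, 188 and 250 in *Wt1KOΔEC*. For *Msln* these were 59, 0 and 12 counts against 737, 98 and 196. The summed level of 8 cardiomyocyte markers, led by *Myh7*, was 126 to 169 CPM and 92.5 to 219 CPM. That of 6 erythroid genes, led by *Hba-a1*, was 6563 to 14304 CPM and 5005 to 8311 CPM. The 7 neuronal and neural crest markers, led by *Elavl4*, summed to 2.32 to 4.08 CPM and 1.71 to 8.40 CPM. Their part in the levels of the nitric oxide genes was not tested.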
